A study of Mus musculus with 24 samples.

Results

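The genes described here are 7 genes of the interferon response and of MHC class I antigen presentation, *B2m*, *H2-D1*, *H2-K1*, *Stat2*, *Irf9*, *Ifitm3* and *Bst2*. They were chosen by gene symbol, and all 7 were found among the 15456 genes of a table of normalized counts from the medial prefrontal cortex (mPFC) of 24 mice. All 24 mice were BALB/C males (BALB/c OlaHsd according to the methods), 11 weeks old, with 6 mice per group and 1 library per mouse. The control group, labelled as untreated, received PBS according to the methods. The duloxetine group received duloxetine, which blocks serotonin and noradrenaline transporters and is used against depression, as a daily intraperitoneal injection of 10 mg per kg. The *R. flavefaciens* group received live *Ruminococcus flavefaciens*, an anaerobic gut bacterium, by gavage, daily at first and then 2 times a week, and the combined group received both treatments. Treatment lasted at least 21 days. A library held between 12811413 and 15607343 recovered reads, and the group medians ran from 13591497 in the control to 14621656 in the combined group. All 12 markers of cortical neurons fixed for this work were present, and the most abundant of them was *Camk2a*. The labels give each mouse a pair of numbers, such as 9_3, and do not say what the first of them stands for or which mice shared a cage or litter. Every group holds several first numbers, and none of them occurs in another group. The first number was used only as a random block in an alternative. *R. flavefaciens* mouse 9_3 stood apart from its group over all genes. The median chi-square per degree of freedom of its read counts against the other 5 mice was 20.7, where the other *R. flavefaciens* mice had 7.33 to 11.5 and the control mice 2.68 to 4.46. The duloxetine mice had 4.98 to 6.63 and the mice of the combined group 7.93 to 14.2, each within its own group.

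Type I interferons bind a receptor made of IFNAR1 and IFNAR2, whose kinases JAK1 and TYK2 phosphorylate STAT2. STAT2 and IRF9 act in a complex that binds the interferon-stimulated response element (ISRE) of target genes, while interferon gamma acts through the gamma-activated site (GAS). Among the targets are antiviral membrane proteins and the genes of class I presentation, in which peptides cut by the proteasome are carried by TAP into the endoplasmic reticulum and loaded on a heavy chain paired with beta-2-microglobulin. In brain tissue, class I molecules and interferon targets are best known from microglia and vascular cells, and class I is also known from neurons. The interferon genes themselves were not analysed here.

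The promoters of 4 of the 7 genes held letters of these elements, and the stretches around them are shown because they are the elements through which interferons are known to act. RefSeq windows on GRCm38.p6, from 250 bases before to 50 bases after a transcript start, were searched on both strands for the ISRE core GAAANNGAAA and for the GAS letters TTCNNNGAA. Of 32851 windows of all genes, 3.44% held the ISRE core, 8.3% the GAS letters and 0.454% both. Each stretch reads 5′ to 3′ in the direction of the gene, with matched letters in capitals.
*B2m*, chr2:122147523-122147582, plus strand: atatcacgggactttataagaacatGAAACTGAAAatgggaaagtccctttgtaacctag
*Bst2*, chr8:71537562-71537633, minus strand: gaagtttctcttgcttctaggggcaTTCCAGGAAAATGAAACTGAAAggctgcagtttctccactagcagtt
*Stat2*, chr10:128270251-128270310, plus strand: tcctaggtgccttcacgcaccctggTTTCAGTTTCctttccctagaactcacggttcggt
*Ifitm3*, chr7:141010716-141010742, minus strand: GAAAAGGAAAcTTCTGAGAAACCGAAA
With the base before the start counted as -1, the *B2m* match to the ISRE core began at -139, and the *Stat2* match, on the opposite strand, at -222. *Bst2* held a GAS match from -136 and 2 ISRE matches from -130 and -124 that overlap each other, the first of which also overlaps the GAS letters. *Ifitm3* held an ISRE match from 3, a GAS match from 14 and an ISRE match from 20, all within the transcribed part, and the last of these overlaps the GAS letters. The single window of *H2-D1* and the 2 windows each of *H2-K1* and *Irf9* held neither of these exact letter patterns. Variants of the elements with other letters were not searched, so these windows cannot be said to lack an interferon element. A match is a description of letters and not a measured site, and binding was not measured in this study.

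*B2m*, the light chain shared by all class I molecules, was the most abundant of the 7 genes per length. Its mean over the 24 mice was 558 normalized counts per kb of exon, against 122 for *H2-D1*, 103 for *Ifitm3*, 74.4 for *Stat2*, 56.3 for *H2-K1*, 27.9 for *Bst2* and 20.6 for *Irf9*. Not divided by length, the mean count of *B2m* exceeded that of 63.1% of all genes in the table and that of *Bst2* that of 14.6%. The spread over all 24 mice was smallest for *Stat2*, with a coefficient of variation of 6.34%, and largest for *Bst2*, with 34.8%. The libraries held only 11 to 43 recovered reads of *Bst2*, which limits the precision of its values.

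The reads of 3 of these genes are less certain than those of the others. Of the 50-base words in the GENCODE vM21 transcripts of *H2-D1*, 12.8% also occur in transcripts of other genes, most often *H2-Q1*. The share was 9.63% for *H2-K1*, most often with *H2-Q10*, and 10% for *Ifitm3*, most often with *Gm7676*. It was 0.69% for *Stat2*, 1.67% for *Irf9*, whose exons share 123 bases with those of *Rnf31* on the same strand, and 0 for *B2m* and *Bst2*. BALB/c mice carry another MHC haplotype than the C57BL/6 reference genome, so the heavy chain reads came from alleles that differ from the reference, and the effect of this on the counts was not tested.

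None of the 7 genes passed an adjusted p-value of 0.05 in any of 8 comparisons. Each was tested with limma on log2(normalized count + 1), with all 14974 genes that had a mean of at least 10 in 1 fit, with Benjamini-Hochberg adjustment over all of them. The count was 0 of 7 for *R. flavefaciens* against control, where 0.0267% of all genes passed, and 0 of 7 for both treatments against control, where 0.1% passed. It was 0 of 7 for both treatments against *R. flavefaciens* (2.23% of all genes), for duloxetine averaged over the bacterium (1.03%) and for the bacterium averaged over duloxetine (0.0267%). Duloxetine against control, both treatments against duloxetine and the interaction of the treatments each gave 0 of 7, and 0% of all genes. At an unadjusted p-value under 0.05, 3 of the 7 genes were higher with *R. flavefaciens* than in the controls, *Bst2*, *H2-K1* and *B2m*, and 0 were lower, against 8.86% of all genes higher and 10.8% lower. The 7 genes were chosen with earlier results of these data known, so this count cannot be read as an excess over all genes. On the recovered reads, edgeR called 0 of the 7 for *R. flavefaciens* against control, and 0.0267% of all genes. DESeq2 called 3.26% of all genes, including genes to which it gave no adjusted p-value. It called 0 of the 4 genes among the 7 to which it gave one. It gave no adjusted p-value for *Irf9*, *Ifitm3* and *Bst2*, the last of which had an unadjusted DESeq2 p of 0.000866. In bulk tissue a larger share of a cell type and more RNA per cell cannot be told apart.

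**Figure D1:**
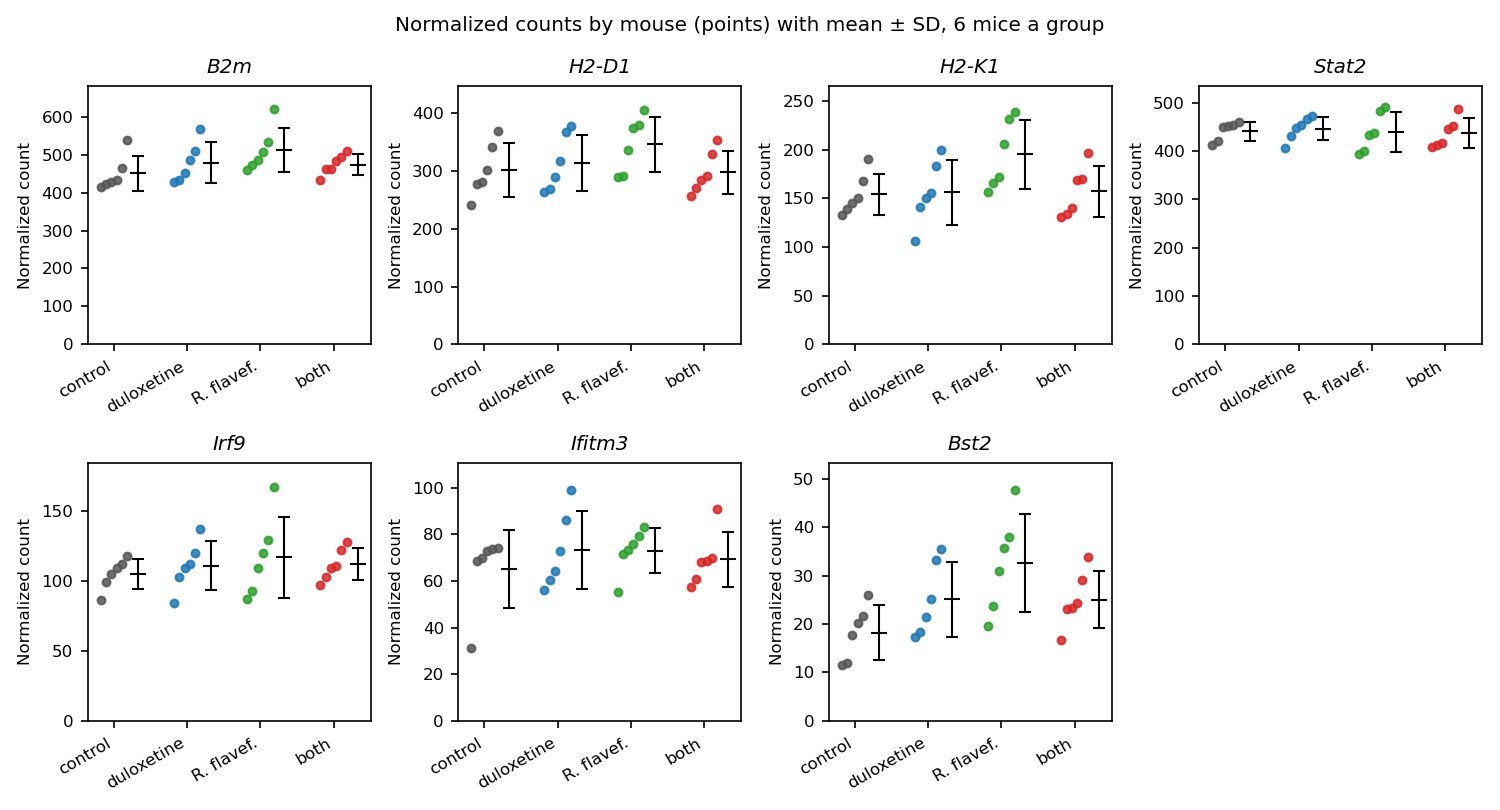
Normalized counts of the 7 genes (vertical axes, from 0) in each mouse, by group on the horizontal axis. Coloured points are the 6 mice of a group, and the black mark with its bar is their mean ± SD. For every gene the range of the *R. flavefaciens* group overlaps that of the controls, and *Bst2* means run from 18.2 in the control to 32.6 in the *R. flavefaciens* group.

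*B2m* (ENSMUSG00000060802.8) spans 122147686 to 122153083 on chromosome 2 of GRCm38, in plus orientation, and all other positions given here are of the same build. It had 415, 431 and 539 normalized counts in the lowest, median and highest control mouse, and 460, 497 and 620 in the *R. flavefaciens* group. All 6 *R. flavefaciens* mice lay above the control mean, but only 1, mouse 9_3, lay above every control mouse. The means were 451 ± 46.1 (SD, n = 6) and 513 ± 58.2 (SD, n = 6). The log2 fold change was 0.19 (standard error 0.0762, unadjusted p = 0.0215, limma adjusted p = 0.176), which is 1.14-fold on the log2(value + 1) scale. *B2m* is a short gene with 860 exon bases, and once each mouse's values were corrected for a trend with exon length its log2 fold change was 0.04. The duloxetine group had 428, 470 and 567 and the combined group 433, 473 and 509 normalized counts, and both ranges overlap that of the controls.

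The heavy chain genes *H2-K1* and *H2-D1* encode the classical class I molecules that hold the peptide. *H2-K1* (ENSMUSG00000061232.15), on the minus strand of chromosome 17 from 33996017 to 34000333, had 133, 148 and 190 normalized counts in the lowest, median and highest control mouse. In the *R. flavefaciens* group it had 156, 189 and 239. All 6 of these mice lay above the control mean and 3 of them, 8_4, 9_2 and 9_3, above every control mouse. The log2 fold change was 0.33 (standard error 0.136, unadjusted p = 0.0226, limma adjusted p = 0.179). The duloxetine group, with 106, 152 and 200, and the combined group, with 131, 154 and 196, had medians within 6 counts of the control median. *H2-D1* (ENSMUSG00000073411.11), on the plus strand of the same chromosome from 35262730 to 35267499, had 242, 291 and 370 normalized counts in the control and 289, 356 and 406 in the *R. flavefaciens* group. Of the 6 *R. flavefaciens* mice, 4 lay above the control mean and 3 above every control mouse, and the log2 fold change was 0.20 (standard error 0.11, unadjusted p = 0.0846, limma adjusted p = 0.324). *H2-D1* had 264, 304 and 378 with duloxetine and 257, 288 and 354 with both treatments.

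*Bst2* and *Ifitm3* are antiviral membrane proteins, the first a tether that holds budding virus particles on the cell surface and the second a block to virus entry. *Bst2* (ENSMUSG00000046718.8), on the minus strand of chromosome 8 from 71534255 to 71537456, had 11.6, 18.9 and 26 normalized counts in the lowest, median and highest control mouse. It had 19.5, 33.3 and 47.6 in the *R. flavefaciens* group, where all 6 mice lay above the control mean and 4 above every control mouse. The log2 fold change was 0.81 (standard error 0.231, interval of 1.96 standard errors 0.35 to 1.26), or 1.75-fold. It had the smallest p-value of the 7 genes (unadjusted p = 0.0017, limma adjusted p = 0.0806), under a threshold of 0.1 that 3.87% of all genes passed. With single mice left out, the limma adjusted p-value of *Bst2* ranged from 0.0364 without *R. flavefaciens* mouse 8_3, the lowest of its group, to 0.221 without mouse 9_3, and it was under 0.05 only without mouse 8_3, where 2.85% of all genes passed. Over 8 other ways of testing with all mice it ranged from 0.0548 to 0.203. *Bst2* had 17.2, 23.2 and 35.5 normalized counts with duloxetine and 16.7, 23.8 and 33.9 with both treatments, and in both groups 2 mice lay above every control mouse.

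*Ifitm3* (ENSMUSG00000025492.6) lies on the minus strand of chromosome 7, from 141009586 to 141010770. It had 31.2, 71.5 and 74.1 normalized counts in the lowest, median and highest control mouse, 56.3, 68.6 and 99.2 with duloxetine, 55.2, 74.6 and 83.1 with *R. flavefaciens* and 57.4, 68.2 and 91 with both treatments. Control mouse 1_1, with 31.2, stood apart from the other controls, which lay between 68.4 and 74.1. The log2 fold change for *R. flavefaciens* against control was 0.21 (standard error 0.175, unadjusted p = 0.241, limma adjusted p = 0.537). Over the alternatives apart from leaving out mice it ranged from 0.056 to 0.225. Without control mouse 1_1 it was 0.01.

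*Stat2* and *Irf9* encode parts of the ISRE-binding complex and are themselves interferon targets. *Stat2* (ENSMUSG00000040033.16), on the plus strand of chromosome 10 from 128270559 to 128292849, had close medians in all groups. Its medians were 451 normalized counts in the control, 451 with duloxetine, 435 with *R. flavefaciens* and 431 with both treatments, and all 24 mice lay between 393 and 490. The log2 fold change for *R. flavefaciens* against control was -0.01 (limma adjusted p = 0.944), with an interval of 1.96 standard errors from -0.13 to 0.11. *Irf9* (ENSMUSG00000002325.15), on the plus strand of chromosome 14 from 55603571 to 55610030, had medians of 107, 111, 114 and 110 normalized counts in the same order. The highest mouse was *R. flavefaciens* mouse 8_4, with 167, and the highest control mouse had 118. The log2 fold change of *Irf9* was 0.13 (standard error 0.128, limma adjusted p = 0.595), and 0.03 without mouse 8_4.

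Relative to *R. flavefaciens* alone, all 7 genes had a log2 fold change below 0 with both treatments, with a median of -0.11 against 0.002 over all genes. *H2-K1* was the only one with an unadjusted p-value under 0.05 (-0.31, standard error 0.136, unadjusted p = 0.0304, limma adjusted p = 0.202), against 9.9% of all genes lower. The values were -0.21 for *H2-D1* (limma adjusted p = 0.286), -0.34 for *Bst2* (limma adjusted p = 0.434) and -0.11 for *B2m* (limma adjusted p = 0.447). The interaction, which measures whether the effect of the bacterium differed with duloxetine, was below 0 for all 7 genes, with a median of -0.27. Over all genes, of which 7413 of 14974 lay above 0, the median was -0.002. Over markers it was -0.35 for leptomeninges, -0.32 for blood, -0.18 for choroid plexus, -0.14 for oligodendrocytes, -0.12 for microglia and -0.11 for pericytes. It was -0.27 for class II genes, -0.04 for endothelial cells, -0.03 for astrocytes, -0.01 for neurons and 0.00 for border macrophages. With the 7 genes left out, it was -0.13 for class I presentation, -0.05 for interferon-stimulated genes and 0.02 for interferon receptors and signalling. Against *R. flavefaciens* alone, medians ran from -0.43 for choroid plexus to 0.18 for border macrophages, with 0.03 for microglia. For *Bst2* the interaction was -0.79 (standard error 0.327, unadjusted p = 0.0225, limma adjusted p = 0.639), and 3.67% of all genes had an unadjusted p-value under 0.05 in that direction. For *H2-K1*, *H2-D1* and *B2m* the interaction was -0.31, -0.27 and -0.20, with limma adjusted p-values of 0.678, 0.666 and 0.655. That of *B2m* ranged from -0.202 to -0.103 over the alternatives apart from leaving out mice. With single mice left out, *B2m*, *H2-D1*, *H2-K1* and *Bst2* stayed below 0 in both comparisons. Without mice 8_4 and 9_3 together, a setting chosen after seeing the data in which 9_3 was left out for the highest sum of the 7 genes, *Irf9* and *Stat2* had 0.11 and 0.03 against *R. flavefaciens* alone and 0.03 and 0.02 for the interaction. In that setting *H2-K1* had -0.22 against *R. flavefaciens* alone (unadjusted p = 0.156), and *Bst2* had -0.68 for the interaction (unadjusted p = 0.0661). Against *R. flavefaciens* alone, *B2m* had -0.054 without *R. flavefaciens* mouse 9_3, and *Bst2* had -0.222 without *R. flavefaciens* mouse 7_2. These comparisons share the *R. flavefaciens* mice with the comparison against control, so they are not separate evidence of its direction.

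Against the controls, the combined group had 0 of the 7 genes higher and 0 lower at an unadjusted p-value under 0.05, where 8.08% and 8.73% of all genes were. *Bst2* came closest (log2 fold change 0.47, standard error 0.231, unadjusted p = 0.0538, limma adjusted p = 0.304), with 5 of 6 mice above the control mean. The log2 fold changes of the class I genes in the combined group were 0.08 for *B2m*, 0.02 for *H2-K1* and -0.02 for *H2-D1*, with intervals of -0.07 to 0.23, -0.25 to 0.28 and -0.23 to 0.20. The signs of these small values depend on the scaling, which put *H2-K1* at -0.02 with quantile normalization, *H2-D1* at 0.02 with scaling to the 75th percentile, and *B2m* at -0.04 and *H2-K1* at -0.02 with the length trend removed. With duloxetine alone 0 of 7 genes were higher at an unadjusted p-value under 0.05, against 2.2% of all genes. There *Bst2* had a log2 fold change of 0.45 (unadjusted p = 0.0611, limma adjusted p = 1) and *B2m* of 0.09 (limma adjusted p = 1). The *B2m* value lay between 0.038 and 0.14 when single mice were left out, and between 0.017 and 0.106 over the other alternatives. For the bacterium averaged over duloxetine, 1 of 7 was higher, *Bst2* (0.41, standard error 0.164, unadjusted p = 0.0184, limma adjusted p = 0.186), against 7.68% of all genes.

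**Figure D2:**
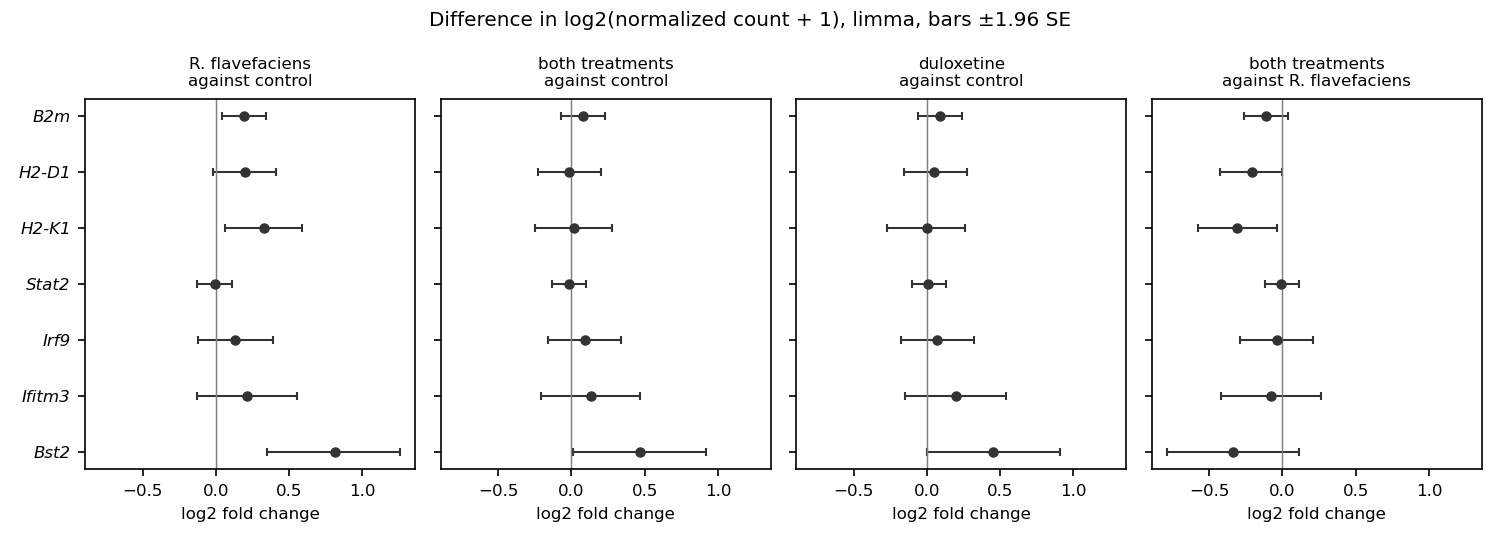
Log2 fold changes of the 7 genes from limma (horizontal axes) in 4 comparisons. Points are estimates and bars are 1.96 standard errors to each side. The bars of *B2m*, *H2-K1* and *Bst2* lie above 0 for *R. flavefaciens* against control, and *Bst2* has the widest bars, from 0.35 to 1.26 in that comparison.

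The count of 3 of 7 genes for *R. flavefaciens* against control changed with single mice. Without *R. flavefaciens* mouse 9_3, which had the most *B2m*, 1 gene was higher at an unadjusted p-value under 0.05, *Bst2*, and the share of all genes was also lower, 5.38%. Without *R. flavefaciens* mouse 9_2 or control mouse 1_1 it was 2, *Bst2* and *B2m*, against 10.3% and 7.25% of all genes, and without control mouse 2_2 it was 2, *Bst2* and *H2-K1*, against 7.75%. Without control mouse 2_3, or *R. flavefaciens* mouse 8_3 or 9_1, it was 4, with *H2-D1* added, against 8.23%, 9.77% and 9.66% of all genes. Without *R. flavefaciens* mice 8_4 and 9_3 together, it was 1 of 7, where 4.29% of all genes were higher. Mouse 8_4 was left out there for the highest sum of choroid plexus markers and 9_3 for the highest sum of the 7 genes, so lower values were fixed by the choice and nothing is read from them. The log2 fold changes were then 0.69 for *Bst2* (unadjusted p = 0.0143), 0.14 for *B2m* (unadjusted p = 0.0748) and 0.24 for *H2-K1* (unadjusted p = 0.126). For all 7 genes the ranges of the *R. flavefaciens* and control groups overlapped, and 1.62% of all genes had groups that did not.

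Among 24 tested genes of class I presentation, 6 (25%) were higher with *R. flavefaciens* than in the controls at an unadjusted p-value under 0.05 and 0 were lower, against 8.86% and 10.8% of all genes. The list was chosen with earlier results of these data known, so its share cannot be read as an excess over all genes. It includes *B2m*, *H2-K1* and *H2-D1*, and among the other 21 genes 4 were higher, *Psme2*, *Psmb10*, *Tap2* and *Psmb8*. The median log2 fold change of those 21 genes was 0.03, and none passed after adjustment. *Psme2*, a subunit of the proteasome activator PA28, had 138 to 158 normalized counts in the control and 146 to 239 in the *R. flavefaciens* group, a log2 difference of 0.26 (limma adjusted p = 0.124). *Psmb10*, an immunoproteasome subunit, had 392 to 420 and 394 to 601, a log2 difference of 0.21 (limma adjusted p = 0.125). *Tap2*, a chain of the peptide transporter, had 44.2 to 69.5 and 62 to 90.7, a log2 difference of 0.31 (limma adjusted p = 0.178). In all 3 the groups overlap, and the *R. flavefaciens* group has the higher maximum. Without mice 8_4 and 9_3 the count of the list was 1 of 24, *Psmb10*, against 4.29% of all genes. With both treatments against control it was 2 of 24 (8.33%, against 8.08% of all genes), *H2-T24*, a class I gene outside the classical ones (0.30, limma adjusted p = 0.292), and *Psmb10* (0.16, limma adjusted p = 0.293), and *Pdia3*, which helps load the peptide, had a log2 difference of -0.14 (limma adjusted p = 0.313).

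Of 60 listed interferon-stimulated genes 47 were in the table, and *Mx1* and *Oas2* were among those not in it. Only 18 of the 43 tested genes other than *Bst2* and *Ifitm3* had a mean of at least 50 normalized counts. The part of low counts in the shares of this list was not tested. Among the 45 tested genes, 2 (4.44%) were higher and 1 (2.22%) lower with *R. flavefaciens* at an unadjusted p-value under 0.05. Both shares were below the 8.86% and 10.8% of all genes. Higher were *Bst2* and *Ifit3* (0.55, limma adjusted p = 0.214), the latter an antiviral protein with 9.35 to 17.7 normalized counts in the control and 15.5 to 41.7 in the *R. flavefaciens* group. The lower one was *Adar*, an enzyme that edits adenosine in double-stranded RNA and the most abundant gene of the list, with 2309 ± 97.7 (SD, n = 6) against 2019 ± 278 (SD, n = 6) normalized counts (-0.21, limma adjusted p = 0.129). *Trim30a* differed by 0.38 on the log2 scale (limma adjusted p = 0.268). The median of the 43 genes other than *Bst2* and *Ifitm3* was 0.12, against 0.003 over all genes. With both treatments against control, 4 of 45 (8.89%, against 8.08% of all genes) were higher, *Sp100* (0.45, limma adjusted p = 0.125), *Trim30a* (0.60, limma adjusted p = 0.141), *Ifih1* (0.32, limma adjusted p = 0.17) and *Rsad2* (0.58, limma adjusted p = 0.257), and 1 (2.22%, against 8.73%) was lower, *Adar* (-0.20, limma adjusted p = 0.188). The bacterium averaged over duloxetine gave 3 of 45 (6.67%) higher, *Sp100* (0.25), *Bst2* and *Trim30a* (0.28), and 1 (2.22%) lower, *Adar* (-0.15), against 7.68% and 10.4% of all genes.

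*Ifih1*, a cytosolic sensor of viral double-stranded RNA, was the only gene of the 3 lists that passed the adjusted threshold in any comparison. In both comparisons where it passed it was 1 of the 45 interferon-stimulated genes (2.22%), against 2.23% and 1.03% of all genes. It was higher with both treatments than with *R. flavefaciens* alone (log2 fold change 0.41, standard error 0.111, limma adjusted p = 0.0495), and with duloxetine averaged over the bacterium (0.33, standard error 0.0785, limma adjusted p = 0.0354). Its normalized counts were 56.1, 70.8 and 76.5 in the lowest, median and highest control mouse, 73.9, 82.2 and 99.2 with duloxetine, 58.7, 63.8 and 72.6 with *R. flavefaciens* and 70.7, 85.8 and 106 with both. Its higher means were thus in the groups given duloxetine, while *Bst2*, *H2-K1* and *B2m* had their highest mean in the *R. flavefaciens* group. At an unadjusted p-value under 0.05 from limma, 3 of the 45 genes (6.67%) were higher with duloxetine than in the controls and 0 were lower. Of all 14974 genes, 329 were higher and 244 lower. With duloxetine averaged over the bacterium 5 of the 45 (11.1%) were higher and 0 lower, against 1114 and 1121 of all genes. *Ifih1* was among the higher genes in both comparisons.

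Among 28 genes of interferon receptors and signalling, 0 were higher and 1 (3.57%) was lower with *R. flavefaciens* at an unadjusted p-value under 0.05, both below the 8.86% and 10.8% of all genes, and the median log2 fold change was 0.00. The lower one was *Jak1*, the receptor kinase and the most abundant gene of the list, with 3169 ± 83 (SD, n = 6) against 2902 ± 299 (SD, n = 6) normalized counts (-0.13, limma adjusted p = 0.236). *Ifnar2*, a receptor chain, had a log2 difference of 0.17 (limma adjusted p = 0.279) and *Irf7*, a transcription factor that amplifies interferon production, of 0.32 (limma adjusted p = 0.431). With both treatments against control 2 (7.14%, against 8.08% of all genes) were higher, the receptor kinase *Tyk2* (0.25, limma adjusted p = 0.149) and *Irf7* (0.48, limma adjusted p = 0.264), and *Jak1* had -0.13 (limma adjusted p = 0.307). The bacterium averaged over duloxetine gave *Irf7* 0.34, *Ifnar2* 0.13 and *Jak1* -0.11, and for the class I genes *Tap2* 0.25, *Psme2* 0.17 and *Psmb10* 0.14, none of which passed after adjustment.

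**Figure D3:**
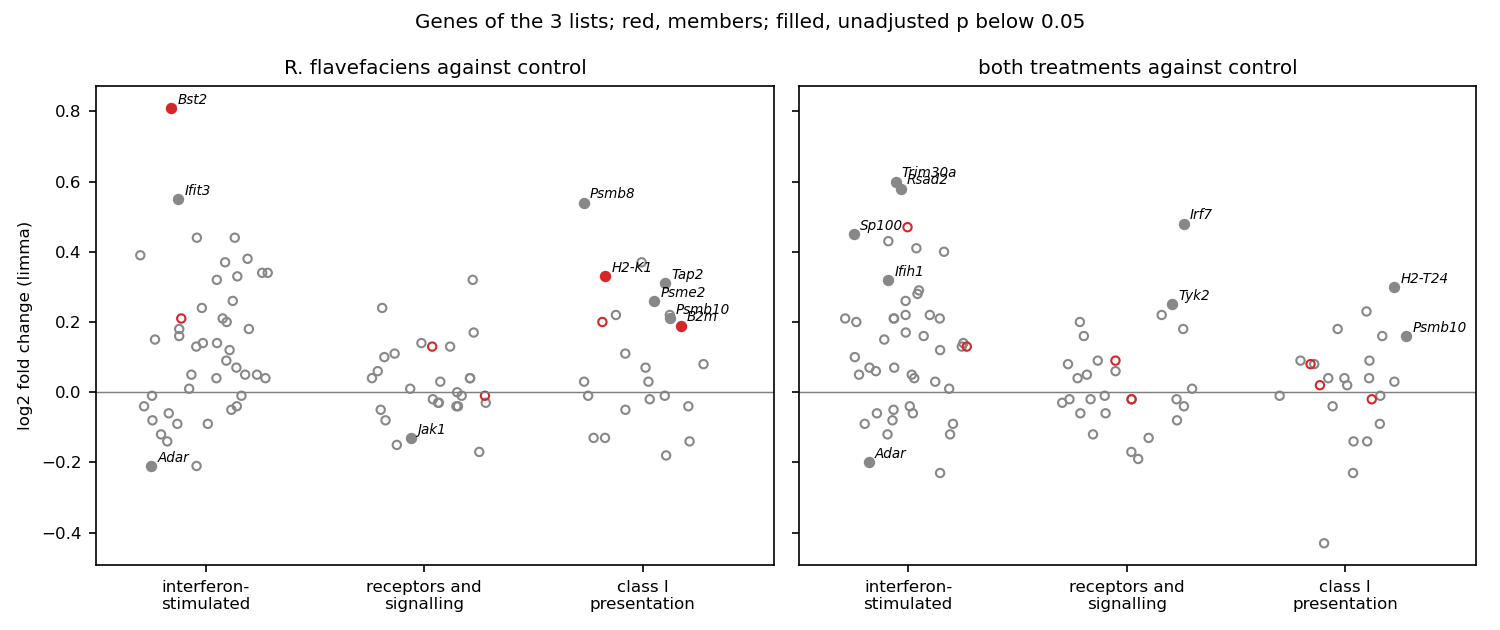
Log2 fold changes from limma (vertical axis) of the genes of 3 lists (horizontal axis) for *R. flavefaciens* (left) and both treatments (right) against control. Red circles are the 7 genes of this text, grey circles the other genes of each list, and filled, named circles have an unadjusted p-value under 0.05. On the left *Bst2*, at 0.81, lies highest of all, and class I presentation holds 6 filled circles, all above 0.

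Markers of other cell types, in lists also chosen with earlier results of these data known, were examined beside these genes. Of 18 microglia markers, 9 (50%) were higher with *R. flavefaciens* than in the controls at an unadjusted p-value under 0.05 and 0 were lower. The shares of all genes were 8.86% and 10.8%. Without mice 8_4 and 9_3, 3 of 18 were higher, against 4.29% of all genes. These mice, with 7827 and 8452, had the highest microglia sums of their group. A lower count was thus favoured by the choice, and nothing is read from it. All 18 markers were in the table, and the most abundant was *Csf1r*, with a log2 difference of 0.09 (limma adjusted p = 0.525). The median of the summed normalized counts of these markers was 6403 for the controls, 7363 for duloxetine, 7122 for *R. flavefaciens* and 7456 for both treatments. The means of these sums were 6384, 7097, 7339 and 7532 in the same order. *C1qa*, a complement gene of microglia, had 463 ± 38.1, 532 ± 65.8, 587 ± 69.9 and 584 ± 81.3 normalized counts (SD, n = 6 each) in the control, duloxetine, *R. flavefaciens* and combined groups. For both treatments 10 of 18 microglia markers were higher, against 8.08% of all genes, and for duloxetine 5 of 18, against 2.2%.

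Of 17 endothelial markers, 0 were higher or lower with *R. flavefaciens* at an unadjusted p-value under 0.05, and their sums had medians of 6408, 7099, 6789 and 7061 in the same order, led by *Slc2a1*. Of 5 blood markers 4 were higher, where 8.86% of all genes were, with median sums of 350, 354, 535 and 470, led by the hemoglobin gene *Hbb-bs*. Of 7 choroid plexus markers 3 were in the table, led by *Kl*, and 1 was higher, *Ttr*. *Ttr*, with a median of 1.05 normalized counts in the control, reached 657 in *R. flavefaciens* mouse 8_4, which also had the highest *Irf9*. Of 16 markers of border macrophages and infiltrating leukocytes only 6 could be examined, and those of T cells and B cells were not analysed here. None of the 6 had an unadjusted p-value under 0.05 with *R. flavefaciens*, and the most abundant of them, *Mrc1*, had mean normalized counts of 55.3 ± 17.2 in the controls and 53.1 ± 13.2 with *R. flavefaciens* (SD, n = 6 each). *Ptprc*, the pan-leukocyte antigen CD45, which microglia also carry, passed for both treatments against *R. flavefaciens* (0.64, limma adjusted p = 0.0495) and for duloxetine averaged over the bacterium (0.56, limma adjusted p = 0.0258). For *R. flavefaciens* against control it had 0.05 (limma adjusted p = 0.902). For the other lists the most abundant genes were *Ctss* for class II presentation, *Rgs5* for pericytes, *Col1a2* for leptomeninges, *Slc1a2* for astrocytes and *Mbp* for oligodendrocytes, and the counts of genes higher with *R. flavefaciens* were 2 of 6, 0 of 9, 0 of 10, 3 of 10 and 0 of 10. Among the 12 neuron markers 3 were higher and 2 lower. These counts, and the 1 of 3 for choroid plexus, stand against 8.86% of all genes higher and 10.8% lower. The part of these cells in the values of the 7 genes was not tested.

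**Figure D4:**
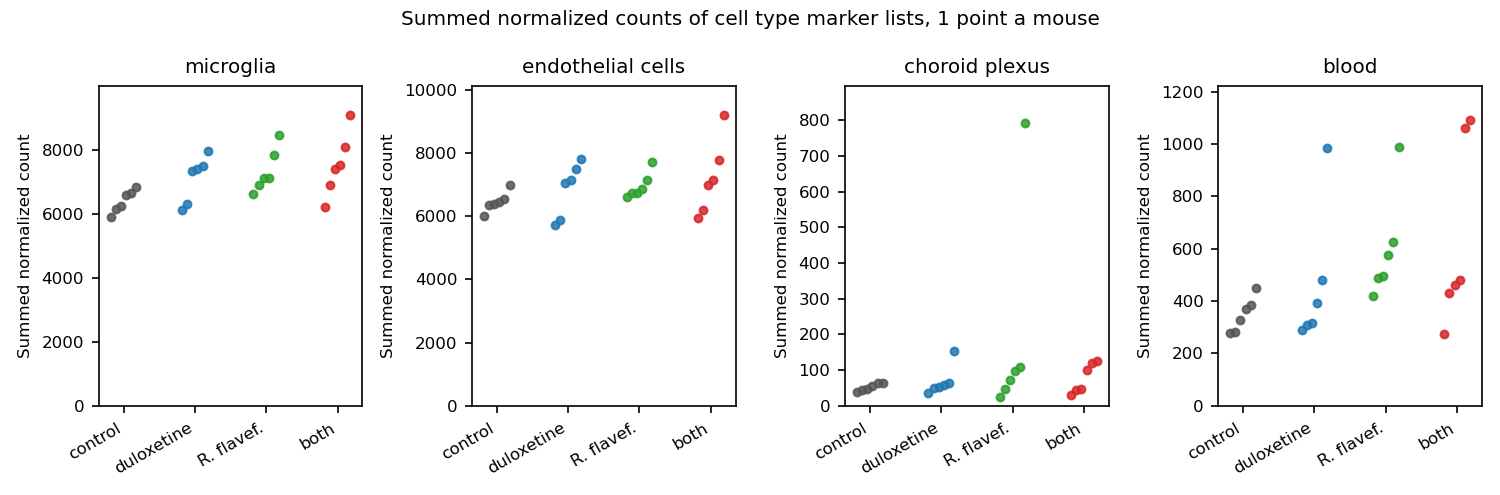
Summed normalized counts (vertical axes, from 0) of the marker genes of microglia, endothelial cells, choroid plexus and blood in each mouse, by group on the horizontal axis, with 6 points per group. In the choroid plexus panel, *R. flavefaciens* mouse 8_4, at 791, lies far above all other mice.

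Within groups, the class I genes varied together from mouse to mouse. After the group means were taken off, Pearson's r over the 24 mice was 0.78 for *H2-D1* and *H2-K1*, 0.72 for *B2m* and *H2-K1* and 0.71 for *B2m* and *H2-D1*, and *Ifitm3* had 0.68 with *H2-D1*. These 4 of 21 pairs exceeded 0.50, the 95th percentile of all pairs of tested genes, whose median was near 0. *Stat2* and *Bst2* had the lowest value, -0.45, and *Stat2* and *Irf9*, partners in 1 complex, had 0.35. The median over the 21 pairs was 0.23. The points share library, depth and tissue piece, and whether reads were shared between the similar heavy chain genes was not tested.

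A score of the 7 genes, the mean of their scaled values within groups, was compared with each of 11930 other genes with a mean of at least 50. The genes most like it over the 24 mice were *Esyt1* (r = 0.849), *Ucp2* (0.836), *Erg* (0.820), *Pltp* (0.811), *Ppp1r3g* (0.810), *Fuca1* (0.806), *Syngr2* (0.805) and *Aldh16a1* (0.801). Without mice 5_4 and 9_1, whose scores lay farthest from the median, the 8 values of r lay between 0.737, for *Syngr2*, and 0.809, for *Ucp2*. The median r with the score was 0.58 over 17 endothelial markers, 0.57 over 18 microglia markers, 0.51 over 10 astrocyte markers, 0.50 over 9 pericyte markers, 0.44 over 10 oligodendrocyte markers, 0.43 over 6 class II genes and 0.42 over 5 blood markers. It was 0.35 over 10 leptomeninges markers, 0.32 over 3 choroid plexus markers and 0.17 over 6 markers of border macrophages and infiltrating leukocytes. It was 0.33 over the 21 other class I genes, 0.25 over the 43 other interferon-stimulated genes, 0.06 over the 26 other signalling genes and -0.14 over 12 neuron markers, against -0.04 over all 11930 genes. These medians include genes with means under 50. With a mean of at least 50, the median was 0.21 over 18 of the 43 interferon-stimulated genes and 0.26 over 13 of the 21 class I genes. Differences between lists were not tested. *Adar* had the lowest value among the interferon-stimulated genes, -0.730, and *Laptm5*, with 0.762, the highest among the microglia markers.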

How the data were processed

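mPFC poly(A) RNA of 24 mice was sequenced. According to the methods, the authors mapped reads with Tophat2 to GRCm38.p5 and normalized counts with DESeq2, while the submitters' processing notes list TopHat2 2.1.0, Bowtie2 2.2.6, DESeq2 1.18.1 and the build mm9. Positions in the table equal those of GENCODE vM21 on GRCm38 for 14253 of 15438 matched genes. The counting program, its use of strand and the filter of the table are not given in the sources used here. The deposited signal values are counts divided by 1 size factor per mouse, and 99.997 percent of the 370875 values above 0 came out as whole reads within a tolerance of 0.0051.

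Log2(value + 1) was tested with limma 3.58.1 (R 4.3.3, trended prior, two-sided, Benjamini-Hochberg) on genes averaging 10 or more. Alternatives were edgeR 4.0.16 and DESeq2 1.42.0 on the recovered reads, other pseudocounts, filters, scalings and samples, a length trend, a random block for the first label number, and leaving out each mouse. Sums and figures used Python 3.11.15, numpy 2.4.6, pandas 2.3.3, scipy 1.17.1 and matplotlib 3.10.9. The fit was tested on simulated data. Mice of a group differed beyond counting error (chi-square per degree of freedom 2.07 to 25.9 over 60 pairs), highest in a pair with *R. flavefaciens* mouse 9_3.

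The 7 genes and all lists were chosen with earlier results of these data known. Named are the 7 genes, list genes past the adjusted threshold, the 3 other genes with the smallest p-values of each of 3 lists in 3 comparisons, the 8 genes most like the 7, and the most abundant gene of each marker list. *Psmb8*, *Rsad2*, *Ttr*, *C1qa*, *Laptm5* and the genes that share sequence were named after their values were seen. *Mx1* and *Oas2* were named as listed genes that are not in the table.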

Additional observations from a re-analysis of the deposited data

Results flagged for a closer look

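In 48 groups of 6 mice, the highest or lowest mouse was compared with its nearest neighbour, and in 6 of them the gap, as a share of the range of the group, exceeded Dixon's 95 percent critical value. For independent, normally distributed values chance gives such a gap in about 1 in 20 groups. Counts and sums need not be so distributed, and the same mice recur across the groups, so the 6 of 48 cannot be set against that rate. *Ifitm3* had 31.2 normalized counts in control mouse 1_1, where the next control mouse had 68.4, and 91 in mouse 12_2 of the combined group, where the next had 69.9. The summed choroid plexus markers were 791 in *R. flavefaciens* mouse 8_4, where the next mouse had 108, and 152 in duloxetine mouse 5_3, where the next had 63.1. The summed blood markers were 988 in *R. flavefaciens* mouse 8_4, where the next had 627, and 984 in duloxetine mouse 6_3, where the next had 482. Mouse 8_4 also had the highest *Irf9*, and the part of choroid plexus or blood in it was not tested.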

How the results depend on the processing

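Of all genes tested for *R. flavefaciens* against control, limma and edgeR each called 4 and DESeq2 488, and limma without mouse 8_3 called 427. Depth limits *Bst2* most, with 11 to 43 reads per mouse. For *R. flavefaciens* against control, the number of the 7 genes past the adjusted threshold was 0, and it was 1 at an adjusted p-value under 0.1 (*Bst2*), and leaving out single mice gave 0 to 1. The number higher at an unadjusted p-value under 0.05 was 3, lay between 1 and 4 when single mice were left out, and was 1 without mice 8_4 and 9_3, a setting chosen after seeing the data. It was 2 with the length trend removed, where *B2m* was at 0.042, and 2 with a minimum mean of 50, which leaves *Bst2* untested. The other 7 comparisons kept 0 of 7 past the adjusted threshold under every alternative run. Over 21 log2 fold changes and 726 combinations with an alternative, 706 kept direction and side of the threshold, 1 (*Bst2* without mouse 8_3, 0.937) came to pass it, and 19, of 5 small values, turned. For *R. flavefaciens* against control, *Stat2* turned to 0.004 with scaling to the 75th percentile and to 0.014 with the length trend removed, and lay between -0.044 and 0.020 when single mice were left out, and *Irf9* turned to -0.016 without mice 8_4 and 9_3. For both treatments against control, *B2m* turned to -0.044 with the length trend removed, *H2-D1* to 0.019 with scaling to the 75th percentile, and *H2-K1* to -0.023 both with quantile normalization and with the length trend removed. Single mice left out gave -0.077 to 0.045 for *H2-D1* and -0.049 to 0.080 for *H2-K1*. The causes were not tested. The random block, with a correlation of -0.045, changed no call. No paired analysis was possible because the groups share no replicate numbers.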
